A study of Mus musculus with 4 samples.

Results

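Egr1, Egr2, Egr3, Nr4a1, Nr4a2, and Nr4a3 are 6 immediate-early transcription factor genes, taken by name from the 31053 genes of a scRNA-Seq data set of cultured mouse splenic B cells. All 6 were found, and 5 of them had at least 50 unique molecular identifiers (UMIs, each standing for 1 captured mRNA molecule) over the data set, the minimum used for ratios, as did 11922 of all genes. Nr4a2 had 20 UMIs. On GRCm38, Egr1 lies on chromosome 18 (34859823 to 34864984, plus strand), Egr2 on chromosome 10 (67535475 to 67542188, plus), and Egr3 on chromosome 14 (70077203 to 70082614, plus). Nr4a1 lies on chromosome 15 (101254269 to 101274795, plus), Nr4a2 on chromosome 2 (57106830 to 57124003, minus), and Nr4a3 on chromosome 4 (48045153 to 48086447, plus). The samples were WT splenic B cells of 2 groups with 2 replicates each. Bregs-CpG were kept for 3 days with CpG B ODN 1668, a ligand of TLR9. Bregs-TLR had the same culture, joined by LPS (a ligand of TLR4), PMA, and ionomycin in its final 5 hours. CpG was thus shared by both groups, and no antigen or receptor-crosslinking antibody is named for either. The study isolated B cells by negative selection, and how many mice a library pooled is not given in the sources used here.

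EGR proteins bind DNA through zinc fingers, and NR4A proteins are orphan nuclear receptors whose activity follows their amount more than a ligand. Both families are switched on within minutes to hours of antigen receptor signaling in lymphocytes, through calcium and through ERK and serum response factor. PMA and ionomycin engage these routes past the receptor. EGR2, EGR3, and the NR4A proteins are known as brakes on lymphocyte activation, and EGR proteins are themselves held back by the NAB co-repressors.

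Cells carried barcodes numbered by library, 5 to 8. The labels do not say which sample a library number stands for, so each library is described on its own, and Bregs-TLR and Bregs-CpG were not compared. A ratio between libraries has 1 library on each side and no replicate check. Its 95% intervals are exact and cover counting error only. After cells with fewer than 1000 genes or with at least 10% mitochondrial UMIs were left out, 18534 of 19920 cells remained, between 4003 and 5621 in a library, with medians of 8752 to 10355 UMIs per cell. B cell markers were detected in all libraries (6 of 6), with a summed level of 13914 and 14449 CPM (UMIs of a gene per 1000000 UMIs of the library) in libraries 5 and 6 and 7388 and 7299 CPM in libraries 7 and 8. Of these, Ms4a1 was at 1499, 1510.5, 32.0, and 37.0 CPM in libraries 5 to 8. The summed level of 7 plasma cell markers was 1614, 1779, 389.8, and 339 CPM. Most of this was Mzb1 (1441, 1548, 154, and 157 CPM), and Derl3 was also lower in libraries 7 and 8. Xbp1 (84.7, 91.7, 112, and 107 CPM) and Sdc1 (0.201, 0.213, 7.45, and 6.15 CPM) were higher there. Jchain followed neither order (36.3, 83.3, 70.9, and 30.1 CPM). The summed level of 4 DNA replication markers was 141, 149.9, 353, and 331 CPM. Summed T cell markers were at most 0.346 CPM, NK cell markers at most 0.981 CPM, and myeloid markers at most 2.98 CPM in a library, with T cell markers at 7.15 CPM in cluster G, described below. Among them Cd3e, Cd4, Cd8a, and Lyz2 were at 0 in every library, while Cd3d, Prf1, and Itgam had UMIs in all 4. Free RNA was not measured, since no cluster was set apart as a cell type that should lack the EGR and NR4A genes. The summed level of 5 erythroid genes was 4.62 and 4.32 CPM in libraries 5 and 6 and 219 and 285 CPM in libraries 7 and 8. Nearly all of it was Hbb-bt (4.57, 4.30, 218, and 285 CPM). Hbb-bs was at most 0.66 CPM and Alas2 at most 0.0471 CPM, with Hba-a1 and Hba-a2 at 0. The median mitochondrial share was 7.22% and 7.18% in libraries 5 and 6 and 4.61% and 4.65% in libraries 7 and 8. The part of these differences in the results below was not tested.

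Promoter sequence is shown for 3 of the members that were higher together in libraries 7 and 8, Egr2, Nr4a1, and Nr4a3. RefSeq windows of 300 bases (GRCm38.p6) were examined for 4 of the 6 members, Egr2, Nr4a1, Nr4a2, and Nr4a3. Windows of Egr1 were not examined, so nothing is said of its promoter, and Egr3 had no window. Printed are the bases before the RefSeq start, cut where an annotated exon of the gene begins, in the direction of the gene. Capitals mark the cyclic AMP response element half-site TGACG or its complement CGTCA, the core of the element that CREB binds. Egr2 has 5 such windows, and the window shown, chr10:67537619-67537868 (plus strand), precedes 1 of them. Nr4a1 is shown from chr15:101266596-101266845 (plus strand), and Nr4a3 from chr4:48045055-48045152 (plus strand).
Egr2: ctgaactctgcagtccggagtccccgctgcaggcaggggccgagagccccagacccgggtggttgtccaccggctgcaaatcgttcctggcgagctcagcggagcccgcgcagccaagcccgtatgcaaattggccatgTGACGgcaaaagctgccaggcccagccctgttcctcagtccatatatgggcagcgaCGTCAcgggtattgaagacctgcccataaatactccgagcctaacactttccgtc
Nr4a1: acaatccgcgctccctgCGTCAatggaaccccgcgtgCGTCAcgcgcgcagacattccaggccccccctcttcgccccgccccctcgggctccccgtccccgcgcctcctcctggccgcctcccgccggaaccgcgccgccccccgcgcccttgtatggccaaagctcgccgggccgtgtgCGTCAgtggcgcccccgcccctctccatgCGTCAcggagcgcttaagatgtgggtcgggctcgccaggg
Nr4a3: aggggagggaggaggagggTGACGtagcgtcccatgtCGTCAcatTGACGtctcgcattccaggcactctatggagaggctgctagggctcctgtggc

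The half-site occurred 4 times in the whole 300-base window of Nr4a1, 4 times in that of Nr4a3, 4 times in that of Nr4a2, and 2 times in the Egr2 window shown. Of the 5 Egr2 windows, the 3 that hold 2 half-sites overlap one another and share them. The other 2, at chr10:67535249-67535548 (beside the annotated start of the gene) and chr10:67537316-67537615, hold 0, and the window shown was chosen because it holds the motif. Of 32851 windows of all genes, 20.8% held the half-site, 5.01% held it 2 or more times, and 1.03% held it 3 or more times. The Egr2 window also held 1 CArG box, the site of serum response factor, which 1.63% of all windows held. None of the NR4A windows held one. The zinc finger site GCGNGGGCG that EGR proteins bind occurred once in the windows of Nr4a1 and Nr4a2 and in 5.55% of all windows. A GC box (GGGCGG) was in 35.7% and TATAAA in 13.6% of all windows. All motifs were searched on both strands and may overlap, and a match is a description of the letters and not of binding. The counts are of 3' ends, so they do not show which start was used.

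Egr1 was the most abundant member by CPM. Levels of different genes were not scaled for length, which a 3' assay does not require, but capture may differ between genes. Egr1 reached 35.7 CPM in library 5 (95% interval 34.0 to 37.5), 20.4 CPM in library 6 (19.2 to 21.7), 95.1 CPM in library 7 (92.7 to 97.5), and 95.4 CPM in library 8 (92.5 to 98.2). Libraries 7 and 8 thus lay above libraries 5 and 6, and their own intervals overlapped. At least 1 Egr1 UMI was found in 19.6%, 11.7%, 39.9%, and 40.2% of cells. After every cell was thinned to 5000 UMIs, which left out between 114 and 233 cells of a library, the shares were 12.1%, 6.96%, 27.2%, and 26.4%. Positive cells held a mean of 1.95, 1.91, 2.70, and 2.70 UMIs, so that more cells with Egr1 and more Egr1 per positive cell went together. These means are from unthinned cells.

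**Figure D1:**
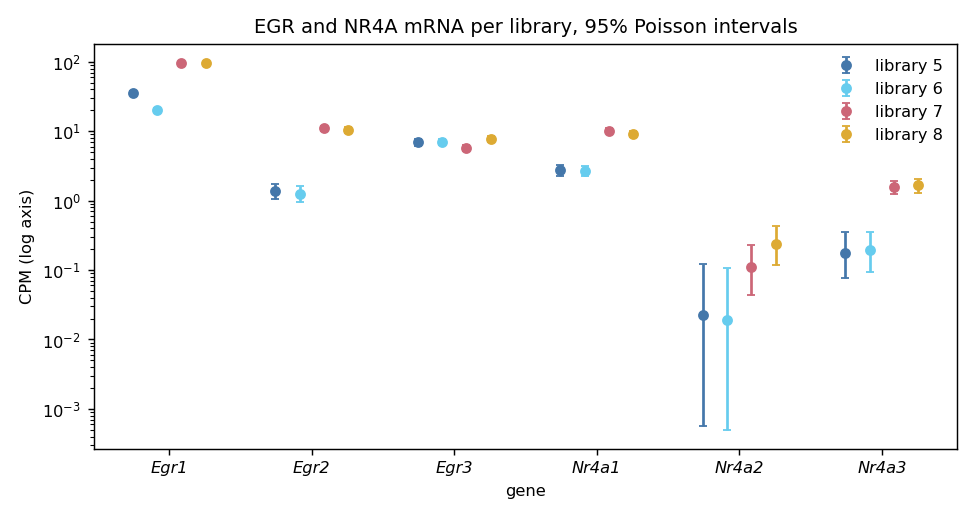
CPM of each gene (log axis) in libraries 5 to 8, with exact Poisson 95% intervals as bars. Egr1, Egr2, Nr4a1, and Nr4a3 lie higher in libraries 7 and 8 than in libraries 5 and 6, whereas Egr3 lies between 5.70 and 7.71 CPM in all 4.

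Egr2 had 1.36, 1.26, 11, and 10.5 CPM in libraries 5, 6, 7, and 8, and was detected in 1.07%, 1.04%, 10.6%, and 10.4% of cells. Thinned shares were 0.545%, 0.478%, 4.97%, and 5.07%. Egr2 was 8.09-fold higher in library 7 than in library 5 (log2 ratio 3.02, interval 2.64 to 3.42). Positive cells of libraries 5 and 6 nevertheless held no fewer UMIs, with means of 1.36 and 1.33 against 1.17 and 1.15 in libraries 7 and 8. The mean of library 5 leans on 1 of its 45 positive cells, which held 8 of the 61 UMIs.

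Nr4a1, which encodes NUR77, had 2.77, 2.67, 10.2, and 9.22 CPM in libraries 5 to 8 and was detected in 2.38%, 2.25%, 8.54%, and 8.04% of cells. It was 3.70-fold higher in library 7 than in library 5 (log2 ratio 1.89, interval 1.61 to 2.18). Nr4a3 (NOR1) was sparse, with 8, 10, 99, and 76 UMIs, or 0.178, 0.194, 1.56, and 1.66 CPM. Its ratio of library 7 to library 5 was 8.72 (log2 ratio 3.12, interval 2.09 to 4.38). Nr4a2 (NURR1) was nearly absent, with 1, 1, 7, and 11 UMIs. Its counts in libraries 5 and 6 were under the floor of 3, and no ratio is given.

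Egr3 differed from these members. Its levels were 6.98, 7.01, 5.70, and 7.71 CPM, with 95% intervals of 6.23 to 7.80, 6.31 to 7.77, 5.13 to 6.32, and 6.92 to 8.56. Thinned shares of positive cells were 2.50%, 2.30%, 2.39%, and 3.22%. The order of the libraries was thus not that of Egr1. Library 7 was the lowest for Egr3, and library 8 lay above it by 0.43 on the log2 scale (0.22 to 0.65). What differed was how Egr3 was spread over cells. A positive cell held 1.64 and 1.86 UMIs in libraries 5 and 6 but 1.23 and 1.28 in libraries 7 and 8. The 1% of cells with most Egr3 held 45.7% and 51.7% of its UMIs in libraries 5 and 6, and 34.2% and 29.3% in libraries 7 and 8. At similar CPM in the 4 libraries, Egr3 UMIs were thus gathered in cells that held more of them each in libraries 5 and 6, although these libraries had fewer UMIs per cell.

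Members were counted as apart between libraries at a ratio of at least 2-fold. Between libraries 6 and 5, 0 of the 5 members with enough UMIs were apart in either direction, where 0.856% of all genes were. Between libraries 8 and 7, 0 of 5 were apart, against 1.6% of all genes. Egr1, Egr2, Nr4a1, and Nr4a3 (4 of 5) were higher in library 7 than in library 5, as were 16.3% of all genes, and higher in library 7 than in library 6, as were 15.5%. The same 4 were higher in library 8 than in library 5 (14.7% of all genes) and than in library 6 (14.1%). None of the 5 was lower in these 4 ratios, against 16.3%, 16.8%, 17.2%, and 17.7% of all genes for library 7 over library 5, library 7 over library 6, library 8 over library 5, and library 8 over library 6. These 4 ratios share libraries and are not independent. Nr4a3 reached the minimum used for ratios only through libraries 7 and 8, with 99 and 76 UMIs against 8 and 10 in libraries 5 and 6. The same minimum, over the whole data set, was used for all genes. The median log2 ratio of the 5 members was 1.89 for library 7 over library 5, beside 0.14 for all genes.

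The largest gap between libraries 5 and 6 was that of Egr1. It was 0.81 lower on the log2 scale in library 6 (interval of the log2 ratio -0.92 to -0.69), the 5th largest ratio in either direction among 6628 genes with an average of at least 10 CPM. Most of the 22 other immediate-early genes did not share this gap. Their median log2 ratio of library 6 to library 5 was -0.03, and 1 of them, Fos, was at least 2-fold lower and 0 were 2-fold higher. Egr1 itself was within 2-fold here, so this count leaves out gaps of its size. Fos and Fosb, named after their values were seen, were lower in library 6, Fos with 1.38 and 0.66 CPM and Fosb with 0.87 and 0.46 CPM in libraries 5 and 6, whereas Ier3 had 0.40 and 0.72 CPM. Egr2, Egr3, and Nr4a1 did not share the gap, with log2 ratios of -0.11 (-0.64 to 0.42), 0.01 (-0.22 to 0.23), and -0.05 (-0.41 to 0.31).

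Which columns belong to which library was inferred from the order of the barcodes. The shift in mean mitochondrial share was at percentile 99.99 of all columns at the start of library 7 and 93.1 at that of library 8. It was not marked at the start of library 5 (percentile 78.2), where the columns used begin, or of library 6 (percentile 69.2). Egr1 was therefore followed along the columns. In 4 equal runs of columns it had 32.4, 36.6, 37.0, and 36.9 CPM in library 5 and 19.6, 23.2, 19.8, and 19.1 CPM in library 6. It was nearly level within each library and lower in the first run of library 6 than in the last run of library 5. The runs were cut at the inferred starts of the libraries, so they cannot show whether a start is exact.

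**Figure D2:**
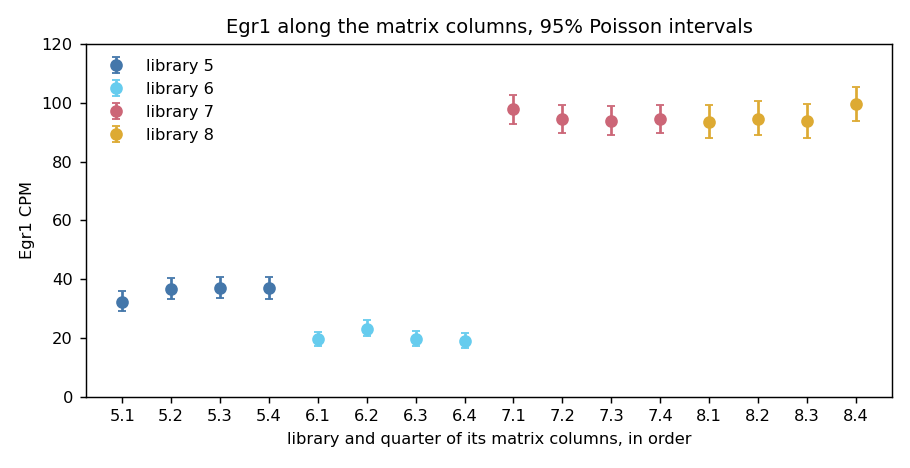
Egr1 CPM in 4 equal runs of matrix columns per library, in column order, with exact Poisson 95% intervals as bars. The level steps from 36.9 to 19.6 CPM between the last run of library 5 and the first of library 6, and is between 93.4 and 99.6 CPM in libraries 7 and 8.

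Within a library, some pairs of members were found in the same cells more often than the product of their shares. Among cells thinned to 5000 UMIs, at least 2 of the 6 members were detected in 1.34%, 1.39%, 5.40%, and 5.28% of cells of libraries 5, 6, 7, and 8. For all 6 pairs among Egr1, Egr2, Egr3, and Nr4a1 the odds ratio of co-detection was above 1 in every library. This turned for Egr2 and Nr4a1 in cells thinned to 2500 UMIs (0.575 in library 7 and 0.932 in library 8) and for Egr3 and Nr4a1 within the largest cluster of library 8 (0.932). Each turned value rests on 2 cells, against 3.41, 2.14, and 2.14 by the product. Other gene pairs of like detection were not examined. Whether odds ratios above 1 are particular to these members was thus not tested. In libraries 7 and 8 the odds ratios were between 1.24 and 2.62. The lowest, that of Egr2 and Nr4a1 in library 7, rests on 15 cells against 12.4. In libraries 5 and 6 they were between 2.18 and 37.5, on few cells, and the highest, that of Egr1 and Egr2 in library 6, was 10.8 at 2500 UMIs and 84.5 within the largest cluster. Nr4a3 did not share the pattern with every member. In library 7 it was found with Egr1 in 11 cells against 10.9 by the product and with Egr2 in 1 cell against 1.99. There it was with Egr3 in 0 cells against 0.958, but with Nr4a1 in 4 cells against 1.85. In library 8 it was found with Egr1 in 6 cells against 6.88 and with Nr4a1 in 1 against 0.980. It was there with Egr2 in 3 cells against 1.32 and with Egr3 in 5 against 0.838. Thinned cells with Nr4a3 numbered only 3 in library 5 and 6 in library 6. Nr4a2 was in too few cells to compare.

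Egr1 and Egr3 were detected together in 34 cells of library 5 where 12.3 would be given by the product of the single shares, and in 42 cells of library 6 where 7.37 would. In libraries 7 and 8 these numbers were 61 against 35.0 and 59 against 32.8. The odds ratios were 3.87, 9.95, 2.47, and 2.62. Egr2 and Egr3 shared 9 cells against 0.55 in library 5 and 6 against 0.507 in library 6, but 14 against 6.42 in library 7 and 10 against 6.29 in library 8. Of the 22 Egr2-positive cells of library 6, 16 also held Egr1, against 8 of 22 in library 5. For Egr3 and Nr4a1, the odds ratios were 11.3 and 9.28 in libraries 5 and 6 and 1.97 and 1.55 in libraries 7 and 8. The odds ratios of libraries 5 and 6 rest on few shared cells and carry no interval. They are therefore not taken, beside those of libraries 7 and 8, as a measure of one common strength.

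**Figure D3:**
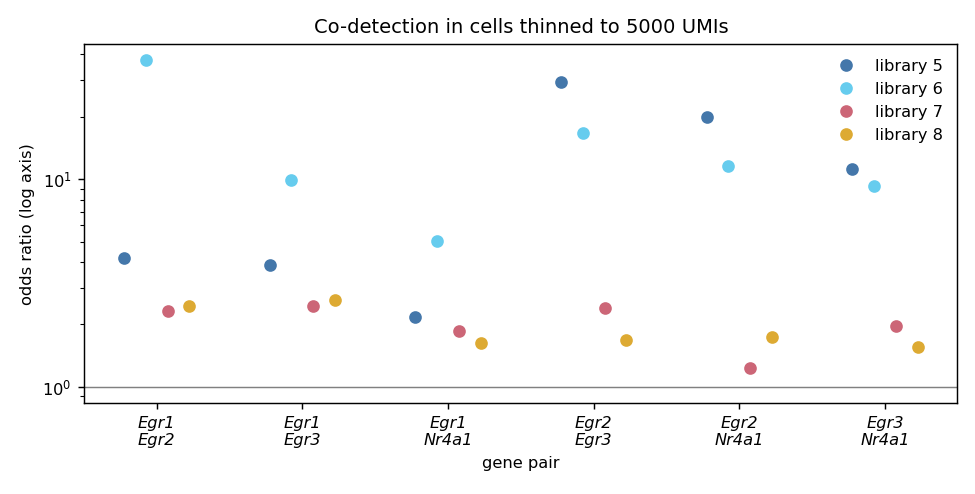
Odds ratio of finding both genes of a pair in a cell (log axis), in cells thinned to 5000 UMIs, by library. All 24 points lie above 1, and for every pair but those with Egr1 the points of libraries 5 and 6 are above 9 and those of libraries 7 and 8 below 3. Pairs of other genes were not examined.

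Egr1 was the member with enough positive cells to look for genes of like pattern. Over 6920 genes, the highest mean correlations with Egr1 across cells of a library were those of Junb, an AP-1 subunit (r = 0.193, 0.198, 0.144, and 0.146 in libraries 5 to 8), and Ier2, another immediate-early gene (0.148, 0.187, 0.164, and 0.160). Dusp5, an ERK phosphatase, followed with 0.152 and 0.123 in libraries 7 and 8. The median gene had a correlation near 0 (-0.00263). These are correlations across cells that share a library and a fixed depth, and they are weak.

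Cells with a member also differed in the chemokine genes Ccl3 and Ccl4, which are known to be induced by antigen receptor signaling. Ccl3 was at 65.3, 186, 96.4, and 83.8 CPM in Egr1-positive cells of libraries 5, 6, 7, and 8, which was higher than in the others by 1.05, 2.99, 0.77, and 0.58 on the log2 scale. In library 5, Ccl4 was at 162 CPM in Egr1-positive cells and 45.9 CPM in the others, and in library 6 at 398 and 26.8 CPM. The difference was smaller in library 7, with 470 and 264 CPM, and in library 8, with 397 and 258 CPM. In clusters F and G of libraries 7 and 8, described below, Ccl4 was nevertheless lower than in cluster B. The few Egr2-positive cells of libraries 5 and 6 (22 in each) stood farthest apart, with 1345 and 2227 CPM of Ccl4 against 52.9 and 42.2 CPM in Egr2-negative cells. Nr4a1-positive cells held 779 and 449 CPM of Ccl4 against 51.3 and 49.0 CPM in libraries 5 and 6.

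Some other genes with ties to these factors were also higher in Egr3-positive cells of libraries 5 and 6. Nab2, Myc, and Il10 are given here by Egr3 only, and not by the other members. Only 101 and 106 thinned cells of these libraries were Egr3-positive, so their values rest on few UMIs. Egr3-positive cells had Nab2, an EGR co-repressor and EGR target, at 17.8 and 20.8 CPM against 5.54 and 4.94 CPM. Myc was at 41.6 and 56.6 CPM against 13 and 13.8 CPM. Il10, the regulatory cytokine, was at 39.6 and 26.4 CPM in Egr3-positive cells and at 11.2 and 9.12 CPM in the others. In libraries 7 and 8, where Il10 was far higher, Egr3-positive and Egr3-negative cells did not differ beyond the interval, with log2 ratios of -0.05 (-0.28 to 0.18) and -0.05 (-0.29 to 0.19). Cells of libraries 7 and 8 differed by Egr1 in Mki67, a proliferation marker, at 39.6 against 14.6 CPM in library 7 and 49.4 against 13.9 CPM in library 8. In library 5, Mki67 was lower in Egr1-positive cells (25.7 against 38.8 CPM) and in library 6 equal (41.9 in both).

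Clustering without the listed genes gave 7 clusters, A to G. Clusters A, D, and E came nearly all from libraries 5 and 6, and B, C, and F from libraries 7 and 8, so clusters are compared only within a library. Cluster G (264 cells), led by Jchain, had cells of all 4. Clusters D and F were cycling-like by Mki67, Top2a, Cdk1, and Ccnb1, and C was DNA-replicating-like by Mcm3, Mcm5, Mcm6, and Pcna. The replication markers were not particular to C. Their summed level was 737 CPM in C, 628 CPM in F, and 559 CPM in D. The clusters were chosen for mention after their values were seen.

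In the cycling-like cluster F, Egr1, Egr2, Egr3, and Nr4a1 were above the largest cluster of the same libraries, B. Egr1 was at 217 CPM in F and 88.9 CPM in B in library 7 (2.44-fold), and at 199.6 and 85.1 CPM in library 8 (2.35-fold). Thinned to equal depth, 53.6% and 51.2% of F cells were Egr1-positive, against 26.3% and 24.8% of B cells. Nr4a1 was 3.17-fold and 2.60-fold higher in F, Egr3 3.40-fold and 2.85-fold, and Egr2 1.66-fold and 1.87-fold. Ccl4 was lower in F than in B, with 205 against 379 CPM in library 7 and 168 against 308 CPM in library 8. In the DNA-replicating-like cluster C, Egr1 was not above B. It was at 73.1 CPM in library 7 (log2 ratio -0.28, -0.37 to -0.19) and 81.7 CPM in library 8 (-0.06, -0.16 to 0.05). Nr4a1 was 1.59-fold and 1.65-fold higher in C than in B. Egr3 was 1.56-fold higher in C of library 7 (log2 ratio 0.64, 0.30 to 0.99) and 1.29-fold in library 8 (0.36, -0.006 to 0.72). For Egr2 the interval included 0 in both libraries. In the cycling-like cluster D of libraries 5 and 6, Egr1 was near the level of cluster A, with 34.2 against 36.1 CPM in library 5 and 22.9 against 19.3 CPM in library 6 (log2 ratio 0.25, 0.02 to 0.47). The intervals of the ratios of Egr2, Egr3, and Nr4a1 included 0 on the log2 scale, except for Egr3 in library 6 (0.46, 0.07 to 0.85).

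Cluster E, led by Ly6k and Ccl3, held 386 and 420 cells of libraries 5 and 6. Ccl4 was at 493 and 324 CPM in E against 5.52 and 21.6 CPM in A. Il10 was at 54.1 and 33.5 CPM against 7.41 and 6.35 CPM. The part of cluster E in the higher Ccl4 and Il10 of member-positive cells of these libraries was not tested. Egr2 was at 4.33 and 5.01 CPM in E against 0.851 and 0.907 CPM in A. Egr3 was at 15.1 and 11.6 CPM against 5.83 and 6.05 CPM, and Nr4a1 at 5.84 and 5.41 CPM against 2.36 and 2.50 CPM. Egr1 differed less, with 33.7 against 36.1 CPM in library 5 (log2 ratio -0.10, -0.35 to 0.15). In library 6, Egr1 was higher in E, with 25.0 against 19.3 CPM (0.37, 0.09 to 0.65). In the Jchain-led cluster G, Egr1 was at 189 CPM in library 7, on 55 cells, at 203 CPM in library 8, on only 34 cells, and at 29.6 and 16 CPM in libraries 5 and 6, on 69 and 106 cells. Ccl4 was at 24.0 and 18.2 CPM in G of libraries 7 and 8, on 18 and 7 UMIs, against 379 and 308 CPM in B.

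**Figure D4:**
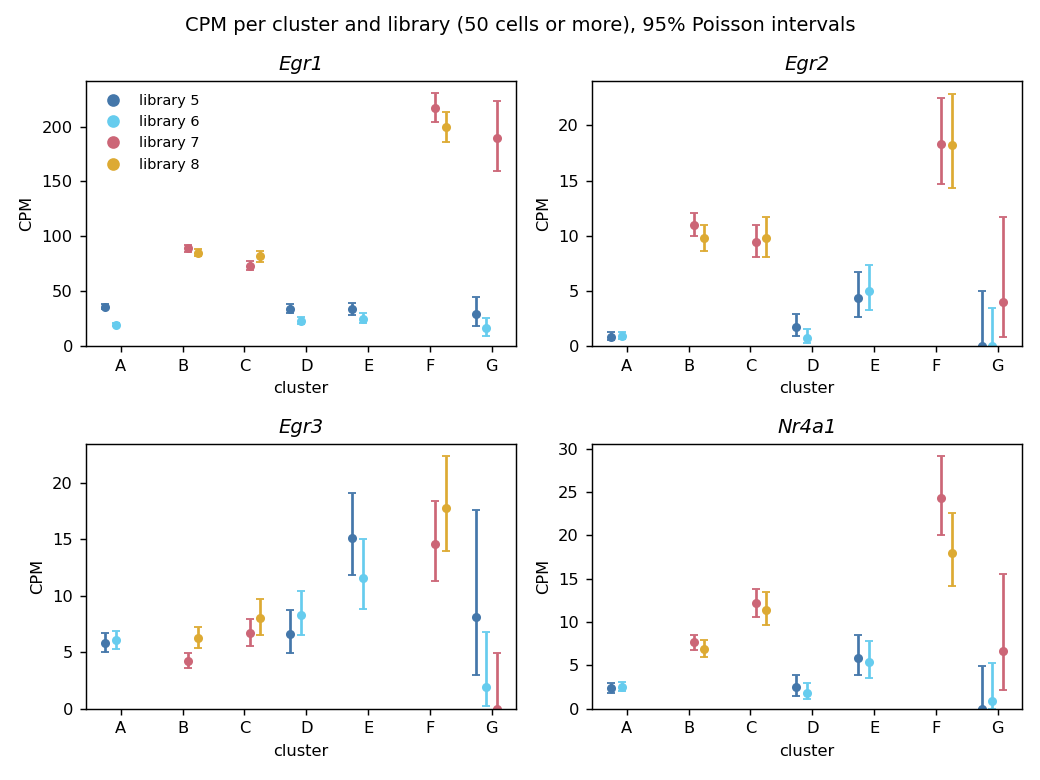
CPM of Egr1, Egr2, Egr3, and Nr4a1 per cluster and library, for clusters with at least 50 cells of a library, with exact Poisson 95% intervals as bars. Cluster F is above B and C for Egr1 in libraries 7 and 8 (217 and 199.6 CPM), G of library 7 is at 189 CPM, and cluster E is above A for the other 3 genes in libraries 5 and 6.

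The pathway around these factors was followed in 8 lists of 72 genes. For the ratios of library 7 or 8 to library 5 or 6, the shares of all genes given above serve as the comparison. Of the NAB co-repressors, Nab2 had 5.91, 5.89, 27.2, and 26.7 CPM in libraries 5 to 8 and was more than 2-fold higher in all 4 ratios, whereas Nab1 was not (19.1, 19.9, 32.6, and 29.5 CPM). Egr4, the remaining EGR gene, had 0, 0, 19, and 7 UMIs. Of 5 genes reported downstream of EGR in lymphocytes that had enough UMIs, none was higher in library 7 than in library 5 and 2 were lower, Cblb, a ubiquitin ligase (86.2, 89.4, 26.7, and 25.8 CPM), and Dgka, a diacylglycerol kinase (21.4, 22.8, 2.33, and 2.17 CPM). Both were lower in all 4 ratios, and Cdkn1a, a cell cycle inhibitor (8.03, 7.03, 15.4, and 13.3 CPM), was higher only in library 7 over library 6. Dgkz, another diacylglycerol kinase, was level (between 19.3 and 19.96 CPM).

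Of 6 genes reported to be restrained by NR4A proteins in B cells, 4 were higher in all 4 ratios. These were the costimulatory gene Cd86 (3.52, 3.91, 98.0, and 97.0 CPM), Ccl4 (70.7, 61.2, 323, and 304 CPM), Myc (15.3, 15.4, 63.8, and 60.0 CPM), and Batf. Icam1 (15.1, 15.7, 19.1, and 17.6 CPM) and Ccl3 were within 2-fold.

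Of 22 other immediate-early genes, 9, 12, 8, and 10 were higher in library 7 over 5, library 7 over 6, library 8 over 5, and library 8 over 6, and 1, 1, 2, and 2 were lower. The AP-1 genes Fosl1 (0, 0.0194, 6.80, and 5.34 CPM) and Fosl2 (0.0669, 0.0581, 7.67, and 7.05 CPM) stood farthest apart, and Maff, a small MAF factor, followed (0.357, 0.368, 2.48, and 2.15 CPM), while Jun was level (171, 181, 173, and 167 CPM). Btg2 was lower in libraries 7 and 8 (221, 238, 56.4, and 56.5 CPM). Of 9 genes of the serum response and MAPK route, Srf (7.02, 7.86, 21.7, and 20.3 CPM) and Elk3, a partner of serum response factor (22.2, 21.9, 62.0, and 62.6 CPM), were higher in all 4 ratios. Its relatives Elk4 (32.5, 34.4, 20.5, and 18.6 CPM) and Elk1 (7.16, 7.17, 8.30, and 7.12 CPM) were within 2-fold. Of 11 genes of the MEF2, NFAT, and calcineurin route, Mef2c (364, 349, 163, and 162 CPM) and Nfatc1 (35.6, 39.5, 9.37, and 9.0 CPM) were lower in all 4, and none was higher. Ppp3ca, the calcineurin catalytic subunit, was within 2-fold (178, 174, 91.0, and 91.2 CPM), and Hdac7 was level (29.9, 31.8, 30.1, and 32.3 CPM).

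Of 9 surface activation markers and cytokines, Il10 (13.7, 11.1, 255, and 253 CPM), Il2ra (9.23, 9.78, 120.3, and 110.1 CPM), Tnf (2.92, 2.89, 24.7, and 25.4 CPM), and Cd44 were higher in all 4 ratios, and Cd69, an early activation marker, was lower in all 4 (144, 136, 67.0, and 49.8 CPM). Il6 was level (between 19.05 and 19.97 CPM). Some heat-shock genes moved with the members. At least 3 of the 6 were higher in each ratio, with Hsp90aa1 at 438, 435, 1515, and 1509 CPM, and the part of this in the members' ratios was not tested. Hspa1a and Hspa1b, which are among the genes counted as higher, were under 0.5 CPM in every library and had only 54 and 55 UMIs in all. Dnajb1 was within 2-fold (25.3, 25.6, 34.0, and 31.8 CPM).

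**Figure D5:**
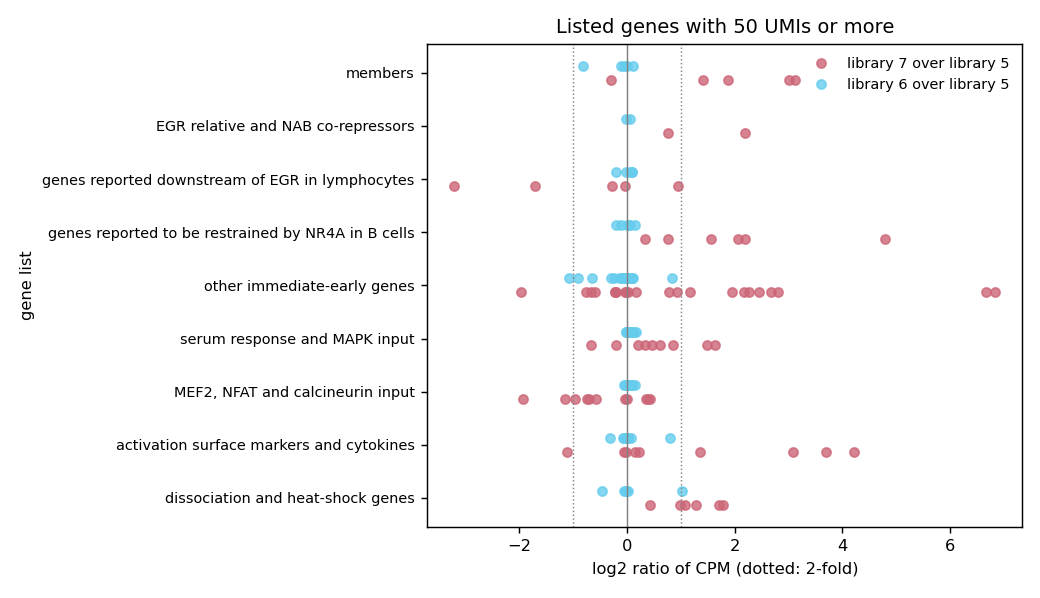
Log2 ratio of CPM for each gene with at least 50 UMIs in each gene list, library 7 over library 5 (red) and library 6 over library 5 (light blue), with dotted lines at 2-fold. Most ratios of library 6 to library 5 lie within 2-fold, with Fos below (-1.07) and Hspa1b above (1.02) and Egr1 at -0.81, and those of library 7 to library 5 spread to both sides.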

How the data were processed

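scRNA-Seq was done by the authors on splenic B cells with the Chromium Single Cell 3' v3 chemistry. The deposited values are the authors' whole UMI counts per gene and cell, made with CellRanger version 3.1.0 on mm10 (Ensembl 93) and combined with CellRanger aggr, by which the study normalized libraries to one another. Its mode is not given in the sources used here. The deposited values are still whole numbers and hold no imputed values. The matrix has 35989 columns and 19920 barcodes. The last columns were read as the barcodes in their order, and 16069 earlier columns, which have no barcode, were left out. Cells with at least 1000 genes and under 10% mitochondrial UMIs were kept, with 44842982, 51636750, 63638158, and 45672518 UMIs in libraries 5, 6, 7, and 8. In all, 29 barcode sequences occur in more than 1 library. No doublet caller was run, and an alternative left out the 5% of cells with most UMIs.

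UMIs were summed per library and divided by the total to give CPM, with 95% Poisson, Clopper-Pearson (shares), or exact conditional (ratios) intervals from SciPy version 1.17.1. They cover counting error only. Counts under 3 were set to 3 in ratios. Cells were thinned to 5000 UMIs for shares and co-detection. Clusters came from Seurat version 5.3.0 (2000 variable genes without the listed genes, 20 principal components, 20 neighbors, resolution 0.3). Scripts were tested on simulated data. Genes were named by a rule: the members, from each list the 3 genes with the largest and the 1 with the smallest ratio of highest to lowest library, and the 3 most like each member. Others were chosen after their values were seen. The members and lists were chosen with earlier results of these data known. Since library numbers name no sample, the planned comparison of Bregs-TLR with Bregs-CpG was not made. Gene positions are from GENCODE vM21 (GRCm38) and promoters from RefSeq.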

Additional observations from a re-analysis of the deposited data

How the results depend on the processing

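Between libraries, CPM scaled with edgeR's TMM factors or DESeq2's size factors, all barcodes, a looser filter on cells, or no cells of the highest 5% by UMIs left the numbers of members at least 2-fold apart as reported in all 6 library pairs, and so did a total without mitochondrial, ribosomal protein, and immunoglobulin genes. That total raised CPM by 1.58 to 1.80 times, and the other settings moved CPM of the 5 members by 0.910 to 1.11 times. With no filter on genes, library 8 over library 7 gave 1 member apart (Nr4a2), and library 8 over library 5 and over library 6 each gave 5 higher. Nr4a2 had 1 UMI in library 5 and 1 in library 6, and was set to the floor of 3 there. A fold of 1.5 gave 1 for library 6 over library 5 (Egr1). A fold of 4 gave 2 for library 7 over library 5 and 2 for library 8 over library 5. It gave 3 for library 7 over library 6 and 3 for library 8 over library 6. Egr1 in the cluster with most Mki67 over the largest cluster was 2.10-fold in library 7 and 1.94-fold in library 8 at a resolution of 0.5, where the reported values were 2.44 and 2.35. Thinned to 2500 UMIs, 18 of 24 shares of positive cells left their interval. Fewer UMIs per cell lower such shares in any case, so this is no check of them. The genes most like Egr1 were then Ier2, Junb, and Btg1. That ranking used 4546 genes in place of 6920, and libraries 5, 7, and 8 only. Thinning to 2500 UMIs turned the odds ratio of Egr2 and Nr4a1 to 0.575 in library 7 and 0.932 in library 8, and within the largest cluster that of Egr3 and Nr4a1 was 0.932 in library 8. The cause was not tested. Of the 24 odds ratios, 9 more moved by over 1.5 times at 2500 UMIs and 4 more within the largest cluster, and 0 did without the highest 5% of cells by UMIs. No paired analysis was possible because the barcode numbers carry no replicate, and no replicate could be left out of a group for the same reason. Depth limits Nr4a2, Nr4a3, Egr4, and the co-detection counts of libraries 5 and 6.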

Other observations

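The libraries fell into 2 separate sets for 4 members. Egr1 was at 35.7 and 20.4 CPM in libraries 5 and 6 and at 95.1 and 95.4 CPM in libraries 7 and 8, Egr2 at 1.36 and 1.26 against 11 and 10.5 CPM, Nr4a1 at 2.77 and 2.67 against 10.2 and 9.22 CPM, and Nr4a3 at 0.178 and 0.194 against 1.56 and 1.66 CPM. The levels of Nr4a3 in libraries 5 and 6 rest on only 8 and 10 UMIs. Egr3 did not separate the libraries. The labels do not say which group a library belongs to.

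Cd69 and Btg2, both lower in libraries 7 and 8 as a whole, were higher in their Egr1-positive cells. Cd69 was at 107 CPM in Egr1-positive and 53.0 CPM in Egr1-negative cells of library 7 and at 80.4 and 43.8 CPM in library 8, and was also higher in Egr1-positive cells of libraries 5 and 6 (log2 ratios 0.25 and 0.61). These genes were chosen after their values were seen. Btg2 was at 84.6 and 47.1 CPM in library 7 and at 90.3 and 45.9 CPM in library 8. In libraries 5 and 6, Btg2 was at 244 and 249 CPM in Egr1-positive and 219.5 and 243 CPM in Egr1-negative cells.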
